A study of Mus musculus with 10 samples.

Results

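The 9 genes described here are the vascular growth factor ligands of the VEGF family (Vegfa, Vegfb, Vegfc, Vegfd and Pgf), the angiopoietins Angpt1 and Angpt2, and the neuropilins Nrp1 and Nrp2. They were taken by symbol from a table of 57010 genes, and all 9 were found in it and passed the filter on low counts. RNA was sequenced from whole, untreated mammary tumours of mice that all carry the MMTV-PyMT transgene, a viral oncogene under a promoter active in mammary epithelium, 5 weeks after tumours appeared. The compared tumours were labelled PyMT; RHBDL4 -/- (KO, 5 libraries), a homozygous knockout of the rhomboid protease RHBDL4, and PyMT; RHBDL4 +/+ (WT, 5 libraries), and KO and WT stand for these labels throughout. The labels give no strain or age of the mice, and 3 pairs of libraries (KO replicates 3 and 4, WT replicates 1 and 2, WT replicates 3 and 4) have names that begin with the same number, whose meaning is not given. The comparison was made with all 10 libraries and without WT replicate 5, which stood far from the others.

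VEGF-A, secreted by tumour cells, macrophages and other cells short of oxygen, drives the growth of blood vessels mainly through the receptor KDR on endothelial cells, while VEGF-B and PlGF (the protein of Pgf) bind FLT1. VEGF-C and VEGF-D act through FLT4 and drive the growth of lymphatic vessels. Angiopoietin 1, made largely by pericytes and other mesenchymal cells, activates the receptor TEK and steadies vessels, and angiopoietin 2, released by sprouting endothelium, is known mostly as its context-dependent antagonist. Neuropilins are membrane co-receptors for VEGF ligands and for class 3 semaphorins. In PyMT tumours, VEGF-A is known for the vessel growth that accompanies the step to malignancy.

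Across the whole table, libraries held 25.7 to 43.3 M counts. Levels are given as CPM, on the usual counts-per-megacount scale. They are the counts of a gene relative to its library's total over the genes passing the filter on low counts. These totals were scaled by TMM factors set over all 10 libraries together. Unscaled levels are relative to the library's total over all genes. Rhbdd1, the gene of RHBDL4, was at 13.2 to 22.3 CPM in KO tumours and 25.02 to 45.4 CPM in WT tumours, so the libraries labelled KO kept 0.481 of the WT mean, or 0.449 without WT replicate 5 (edgeR adjusted p = 0.669 and 0.113). Per unscaled library size, WT replicate 5 was at 14.6 CPM, within the KO range of 13.4 to 23.95 CPM and below the 35.9 to 45.7 CPM of WT replicates 1 to 4. The labels do not say which part of the gene was removed, so these counts over the whole gene do not settle the genotypes. The scaling factor of WT replicate 5 was 0.588, while those of the remaining libraries were 1.01 to 1.10. Its 10 luminal epithelial markers summed to 136 CPM against 4392 to 7677 CPM elsewhere, and its 12 skeletal muscle markers to 156382 CPM against 4.27 to 1757 CPM elsewhere. A further list, of 10 cell division genes, summed to 379 to 750 CPM in KO tumours. It summed to 910 to 1083 CPM in WT replicates 1 to 4 and to 56.8 CPM in WT replicate 5, below every KO library. Without WT replicate 5, 1 gene of this list was called lower in KO tumours. Genes were called at an adjusted p under 0.05 in edgeR's quasi-likelihood test. With all 10 libraries 0 of 18577 genes were called, with 1301 at an unadjusted p under 0.05, and without WT replicate 5 there were 2 calls among 19016 genes, neither of them in this set. In bulk tissue, fewer cells of a type and less RNA per cell cannot be told apart.

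None of the 9 ligand and neuropilin genes was called in either comparison. With all 10 libraries edgeR called 0 of the 9, against 0% of all genes, and 0 of the 9 had an unadjusted p under 0.05, against 7.00% of all genes. Without WT replicate 5 it again called 0 of the 9, against 0.0105% of all genes, and 0 had an unadjusted p under 0.05, against 11.6% of all genes. Limma-voom with sample quality weights called 0 of the 9 in both comparisons. DESeq2 called 0 of the 9 without WT replicate 5 and 0 of the 6 it tested with all 10 libraries, where it gave Vegfb, Vegfd and Nrp2 no adjusted p. The KO and WT libraries overlapped for all 9 genes, whereas 1.99% of all genes did not overlap with all 10 libraries and 5.62% did not overlap without WT replicate 5.

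Per exon length, the VEGF-type ligands Vegfa, Vegfb and Pgf stood above the other 6 genes in the group means of KO tumours and of WT replicates 1 to 4. These levels are CPM per kb of annotated exon, with exon lengths from a GRCm38 annotation (GENCODE M21) and not from the GRCm39 build of the counts. Vegfa was the highest in the group mean, at 30.6 ± 19.1 CPM per kb in KO tumours (SD, n = 5) and 50.8 ± 39.0 CPM per kb in WT replicates 1 to 4 (SD, n = 4). Vegfb followed in KO tumours at 15.3 ± 2.51 CPM per kb, with 17.9 ± 4.04 CPM per kb in those WT tumours. Pgf was at 13.8 ± 6.42 CPM per kb in KO tumours and 24.7 ± 16.0 CPM per kb in those WT tumours. The libraries of these 3 neighbours overlapped within each group, so their order is not set beyond the spread.

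The other 6 genes had group means of 0.985 to 3.15 CPM per kb in KO tumours and 0.473 to 2.53 CPM per kb in WT replicates 1 to 4. Angpt1 led them in KO tumours at 3.15 ± 1.13 CPM per kb, against 1.84 ± 0.876 CPM per kb in WT replicates 1 to 4. Angpt2 led them in WT replicates 1 to 4 at 2.53 ± 0.868 CPM per kb, with 1.59 ± 0.720 CPM per kb in KO tumours. Vegfd was the lowest of the 9 in both groups, at 0.985 ± 0.677 CPM per kb in KO tumours and 0.473 ± 0.470 CPM per kb in those WT tumours. Neighbours in this lower range overlapped as well. In WT replicate 5 the order was another, with Vegfb at 120 CPM per kb above Vegfa at 90.3 CPM per kb, Vegfd in the third place at 17.3 CPM per kb and Pgf last at 1.63 CPM per kb.

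**Figure D1:**
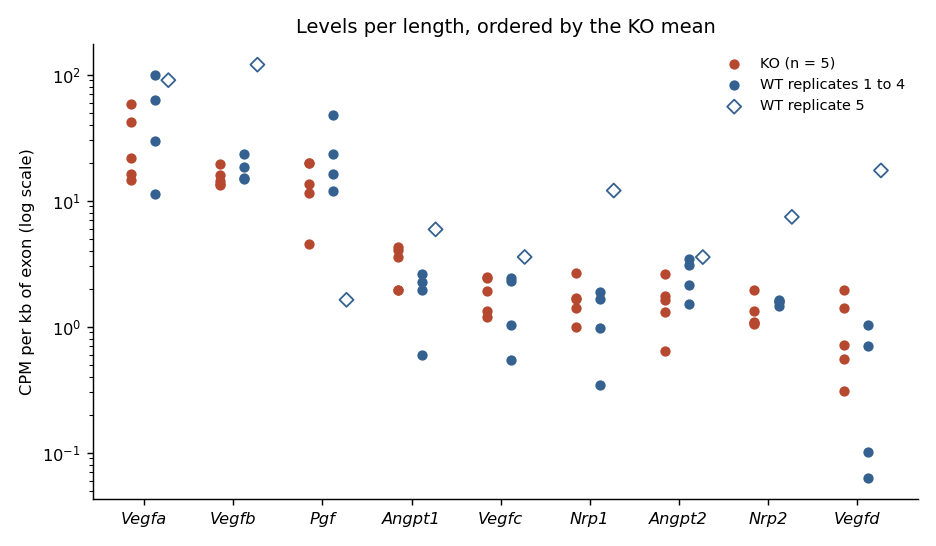
Levels per exon length of the 9 genes (CPM per kb of exon, log axis), genes ordered by the KO mean, with 1 point per library for 5 KO libraries, WT replicates 1 to 4 and, as open diamonds, WT replicate 5. In KO libraries and WT replicates 1 to 4, Vegfa, Vegfb and Pgf lie above the other 6 genes, and in WT replicate 5 Pgf is lowest at 1.63 CPM per kb.

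Vegfa (ENSMUSG00000023951), the main ligand of blood vessel growth, varied widely within both groups. It was at 182, 69.2, 251, 92.7 and 62.3 CPM in KO replicates 1 to 5. In WT replicates 1 to 5 it was at 428, 268, 48.7, 126 and 387 CPM. The highest level was in WT replicate 1 and the lowest in WT replicate 3, so the WT libraries spanned the whole KO range. The mean was 131 ± 81.9 CPM in KO tumours (SD, n = 5) and 218 ± 167 CPM in WT replicates 1 to 4 (SD, n = 4), or 252 ± 163 CPM in all 5 WT tumours. The log2 fold change was -0.94 ± 0.60 (SE) with all 10 libraries and -0.71 ± 0.61 without WT replicate 5 (edgeR adjusted p = 0.683 and 0.676). Without WT replicates 1 and 5 it was -0.15, and limma-voom with sample quality weights put it at 0.10 in both comparisons. With any 1 library left out it stayed negative, from -1.31 to -0.66 among 10 libraries and from -1.08 to -0.15 among 9. Libraries whose names share a leading number also differed, by 2.70-fold for KO replicates 3 and 4, 1.59-fold for WT replicates 1 and 2 and 2.59-fold for WT replicates 3 and 4.

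Vegfb (ENSMUSG00000024962), a ligand of FLT1 best known from muscle and fat, was even across 9 of the libraries and high in WT replicate 5. KO replicates 1 to 5 held 23.0, 31.1, 21.2, 25.5 and 21.8 CPM, and WT replicates 1 to 5 held 37.6, 29.5, 24.1, 23.7 and 192 CPM. WT replicate 5 was 5.11-fold above the next highest library, while the highest of the other 9 was 1.78-fold above the lowest. The corresponding span for Vegfa in those 9 libraries was 8.78-fold. The log2 fold change of Vegfb was -1.32 ± 0.59 with all 10 libraries and -0.21 ± 0.17 without WT replicate 5 (edgeR adjusted p = 0.669 and 0.660). WT replicate 5 thus carried most of the difference in group means, which were 24.5 ± 4.03 CPM in KO tumours and 61.5 ± 73.4 CPM in all 5 WT tumours, or 28.7 ± 6.49 CPM in WT replicates 1 to 4.

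The 250 bases before the transcript start of Vegfa and of Vegfb, the member with the narrowest span over those 9 libraries, are shown for comparison. Vegfd and Pgf had wider spans than Vegfa, of 31.2-fold and 10.5-fold. They come from RefSeq on the build GRCm38.p6, at chr17:46032378-46032627 on the minus strand for Vegfa (the outer of 2 listed starts) and at chr19:6987652-6987901 on the minus strand for Vegfb. Both are written 5′ to 3′ with the core letters of the hypoxia response element, ACGTG or GCGTG on either strand, in capitals.
Vegfa: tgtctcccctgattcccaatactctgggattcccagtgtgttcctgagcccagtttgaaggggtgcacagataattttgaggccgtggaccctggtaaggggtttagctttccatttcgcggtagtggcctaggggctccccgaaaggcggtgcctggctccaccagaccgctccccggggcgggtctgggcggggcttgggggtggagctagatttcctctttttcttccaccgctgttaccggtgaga
Vegfb: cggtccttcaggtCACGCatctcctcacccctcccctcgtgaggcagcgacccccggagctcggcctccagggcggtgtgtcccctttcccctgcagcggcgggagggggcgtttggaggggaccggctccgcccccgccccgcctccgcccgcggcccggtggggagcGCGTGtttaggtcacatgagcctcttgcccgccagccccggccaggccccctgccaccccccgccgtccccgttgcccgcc
The Vegfa window held neither core, while the window of the other listed Vegfa start held 1 ACGTG and 1 GCGTG, and the Vegfb window held GCGTG at 2 places and no ACGTG. The window of that other Vegfa start overlaps 218 exon bases in GENCODE M21, 67 of them coding. Its matches therefore cannot be read as lying in upstream sequence. Of 32851 listed promoters, 16.6% held ACGTG and 28.2% held GCGTG in windows of the same length. The cores were searched separately on both strands, so the letters CACGTG would count on each strand. These matches are only letters in a short window. The GC content was 59.2% in the Vegfa window and 76.4% in the Vegfb window.

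Vegfc (ENSMUSG00000031520) and Vegfd (ENSMUSG00000031380), the lymphatic growth factors, were low in all libraries except Vegfd in WT replicate 5. Vegfc was at 6.02, 4.71, 2.94, 3.28 and 5.95 CPM in KO replicates 1 to 5, against 1.33, 2.53, 5.64, 5.90 and 8.74 CPM in WT replicates 1 to 5. The KO values lay within the range of all 5 WT values, while KO replicates 1 and 5 lay above WT replicates 1 to 4. Its log2 fold change was -0.07 ± 0.47 with all 10 libraries and 0.26 ± 0.44 without WT replicate 5 (edgeR adjusted p = 0.970 and 0.847). Without WT replicates 1 and 5 it was -0.023, and among 10 libraries leaving out KO replicate 3, KO replicate 4 or WT replicate 4 alone gave 0.056, 0.024 and 0.019. Vegfd was at 0.746, 3.38, 1.71, 4.70 and 1.33 CPM in KO tumours, against 0.151, 0.243, 2.47, 1.69 and 41.8 CPM in WT tumours. WT replicate 5 held 626 Vegfd counts, whereas WT replicates 1 and 2 held 5 and 10. For Vegfd the log2 fold change was -1.95 ± 1.35 with all 10 libraries and 1.06 ± 0.83 without WT replicate 5 (edgeR adjusted p = 0.692 and 0.646), so the direction turned with that library. In KO tumours Vegfd averaged 2.37 ± 1.63 CPM, and in WT replicates 1 to 4 it averaged 1.14 ± 1.13 CPM.

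Pgf (ENSMUSG00000004791), whose protein PlGF is a ligand of FLT1, was the member lowest in WT replicate 5. It was at 39.0, 33.2, 57.7, 57.5 and 13.1 CPM in KO replicates 1 to 5, and at 138, 47.0, 34.3, 67.5 and 4.74 CPM in WT replicates 1 to 5. WT replicates 1 and 5 stood at opposite ends of all libraries. The means were 40.1 ± 18.6 CPM in KO tumours and 71.8 ± 46.4 CPM in WT replicates 1 to 4, or 58.4 ± 50.2 CPM with WT replicate 5. The log2 fold change was -0.54 ± 0.69 with all 10 libraries and -0.82 ± 0.48 without WT replicate 5 (edgeR adjusted p = 0.812 and 0.536). Leaving out WT replicate 1 moved it to 0.06 among 10 libraries and to -0.29 among 9.

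The angiopoietins had log2 fold changes of opposite sign in KO against WT tumours, neither called. Angpt1 (ENSMUSG00000022309), the activating ligand of TEK, was at 18.5, 21.1, 10.2, 10.1 and 22.1 CPM in KO replicates 1 to 5, against 3.08, 10.1, 11.7, 13.5 and 30.8 CPM in WT replicates 1 to 5. KO replicates 1, 2 and 5 stood above WT replicates 1 to 4 and below WT replicate 5. Its log2 fold change was 0.25 ± 0.51 with all 10 libraries and 0.79 ± 0.42 without WT replicate 5 (edgeR adjusted p = 0.885 and 0.505). Leaving out WT replicate 1, the lowest library, gave -0.0027 among 10 libraries and 0.49 among 9. An antisense gene, Gm17473, shares 14.2% of the exon bases of Angpt1 in GENCODE M21, so part of its counts may belong to that gene, the strand setting of the counting being unknown.

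Angpt2 (ENSMUSG00000031465), the vessel-loosening ligand of sprouting endothelium, had a negative log2 fold change with and without WT replicate 5. It was at 6.50, 6.02, 9.65, 4.82 and 2.35 CPM in KO replicates 1 to 5, against 12.6, 7.83, 5.58, 11.3 and 13.1 CPM in WT replicates 1 to 5. WT replicates 1, 4 and 5 stood above every KO library, and WT replicates 2 and 3 lay among them. The mean was 5.87 ± 2.66 CPM in KO tumours and 9.32 ± 3.20 CPM in WT replicates 1 to 4, or 10.1 ± 3.26 CPM in all 5 WT tumours. Its log2 fold change was -0.78 ± 0.38 with all 10 libraries and -0.65 ± 0.38 without WT replicate 5 (edgeR adjusted p = 0.669 and 0.537). It stayed negative in each of the alternative settings and with each library left out, from -1.03 to -0.45, and was called in none of them. Angpt2 lies opposite to Mcph1, with 0 shared exon bases in GENCODE M21.

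The log2 ratio of Angpt2 to Angpt1 within a library averaged -1.53 ± 1.14 in KO tumours (SD, n = 5) and 0.08 ± 1.33 in WT replicates 1 to 4 (SD, n = 4). In KO replicates 1 to 5 it was -1.50, -1.80, -0.08, -1.06 and -3.20, and in WT replicates 1 to 5 it was 2.01, -0.37, -1.06, -0.25 and -1.22. KO replicate 3 stood above 4 of the WT libraries and WT replicate 1 above all others, so the groups overlapped. Set against the mean log2 level of 14 blood endothelial markers, Angpt2 was at -1.27 ± 0.80 in KO tumours and -0.03 ± 1.20 in WT replicates 1 to 4, again with overlap. The endothelial mean itself was 3.70 ± 0.46 log2 CPM in KO tumours and 3.19 ± 0.80 log2 CPM in those WT tumours. These ratios were not tested.

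The neuropilins were both high in WT replicate 5. Nrp1 (ENSMUSG00000025810), co-receptor for VEGF-A and semaphorin 3A, was at 13.6, 26.0, 9.65, 16.5 and 16.3 CPM in KO replicates 1 to 5, against 3.35, 9.45, 18.4, 16.3 and 118 CPM in WT replicates 1 to 5. Apart from WT replicate 5, the lowest level was in WT replicate 1 and the highest in KO replicate 2. Its log2 fold change was -1.004 ± 0.81 with all 10 libraries and 0.48 ± 0.46 without WT replicate 5 (edgeR adjusted p = 0.725 and 0.704). The sign of Nrp1, like that of Vegfc and Vegfd, turned with that library.

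Nrp2 (ENSMUSG00000025969), co-receptor for VEGF-C and semaphorin 3F, was at 15.8, 23.1, 12.4, 12.8 and 12.6 CPM in KO replicates 1 to 5, against 17.3, 18.6, 19.0, 19.2 and 87.9 CPM in WT replicates 1 to 5. WT replicates 1 to 4 lay close together, above 4 of the KO libraries and below KO replicate 2. The means were 15.3 ± 4.55 CPM in KO tumours and 18.5 ± 0.861 CPM in WT replicates 1 to 4. The log2 fold change was -1.08 ± 0.50 with all 10 libraries and -0.26 ± 0.20 without WT replicate 5 (edgeR adjusted p = 0.669 and 0.639). Without KO replicate 2 as well, the KO library above the WT ones, it was -0.45, and with any other library left out it was -0.29 to -0.19 (edgeR adjusted p = 0.258, and 0.654 to 0.816).

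**Figure D2:**
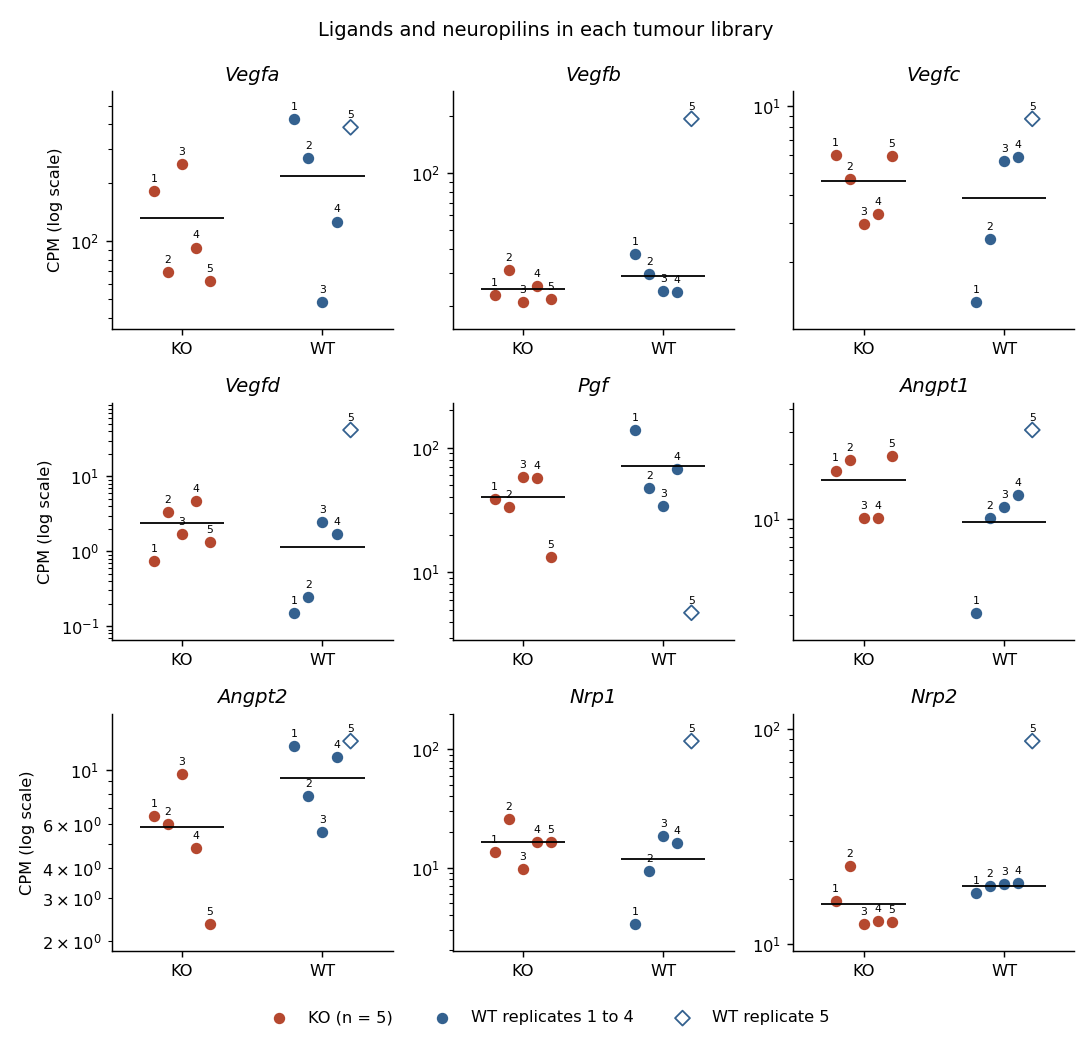
CPM of each gene (log axes that differ between panels) in 5 KO libraries and, to their right, WT replicates 1 to 4, with WT replicate 5 as an open diamond. Small digits are replicate numbers and horizontal lines are the means of the 5 KO libraries and of WT replicates 1 to 4. WT replicate 5 stands apart for Vegfb, Vegfd, Nrp1 and Nrp2 (192, 41.8, 118 and 87.9 CPM) and lowest for Pgf (4.74 CPM).

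Over the 9 genes, 1 log2 fold change was positive and 8 were negative with all 10 libraries, and 4 were positive and 5 negative without WT replicate 5. Among all genes tested, 43.8% were positive and 56.2% negative with all 10 libraries, and 53.2% were positive and 46.8% negative without WT replicate 5. The median of the 9 was -0.94 against -0.06 over all genes with all 10 libraries, and -0.21 against 0.03 without WT replicate 5. Vegfc, Vegfd and Nrp1 had opposite signs in these comparisons, which share 9 libraries.

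**Figure D3:**
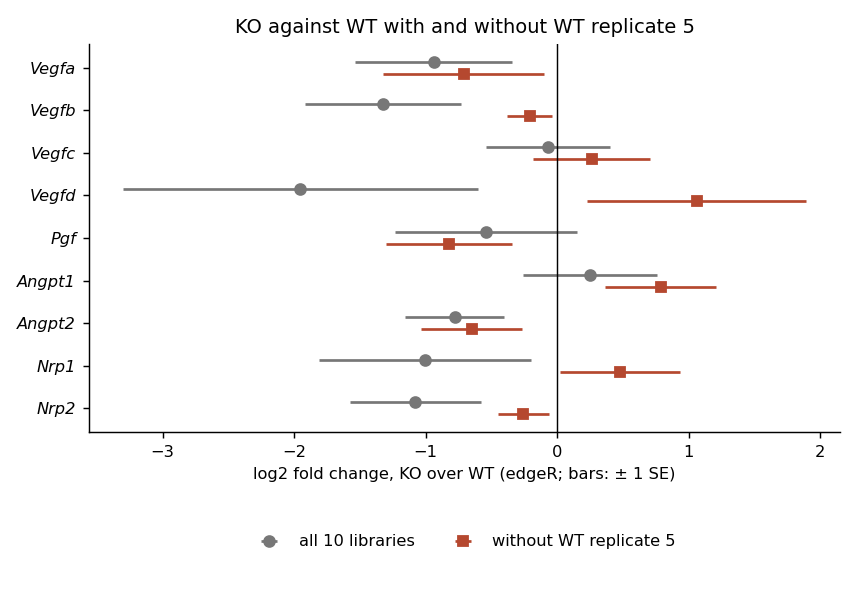
log2 fold changes of KO over WT with 1 standard error on either side, from edgeR with all 10 libraries (circles) and without WT replicate 5 (squares). The fold changes of Vegfb and Nrp2 shrink to -0.21 and -0.26 without that library, and that of Vegfd is 1.06 without it, against -1.95 with it.

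WT replicate 5 held the highest level of all libraries for 7 of the 9 genes (all but Vegfa and Pgf) and the lowest for Pgf. Over all genes tested, 32.3% were highest and 36.5% lowest in that library. Per unscaled library size, 4 of the 9 were highest there (Vegfb, Vegfd, Nrp1 and Nrp2), since its scaling factor raises its CPM. Of the marker lists, all 14 blood endothelial, all 12 skeletal muscle and all 10 adipocyte genes were highest there, and all 10 luminal epithelial genes lowest. Their part in the high levels of the 7 genes was not tested.

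WT replicate 1 was at an end of the remaining 9 libraries for 8 of the 9 genes. It was highest for Vegfa, Vegfb, Pgf and Angpt2 and lowest for Vegfc, Vegfd, Angpt1 and Nrp1, against 14.8% of all genes that were highest and 17.9% that were lowest there. Its 8 fibroblast markers were all lowest of these 9 libraries and summed to 158 CPM, against 1436 to 6956 CPM in the other 8. Of its 14 blood endothelial markers 13 were lowest, and the list summed to 94.8 CPM, against 181 to 389 CPM. Of its 19 hypoxia target genes 9 were highest, with a sum of 4723 CPM against 1613 to 3935 CPM. The part of these cell markers in the levels of the 8 genes was not tested.

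For receptors and modulators of the pathway, the genes named are those with the smallest p without WT replicate 5, and WT means are over replicates 1 to 4. Of 6 receptor genes 0 were called in either comparison. All 6 had positive log2 fold changes without WT replicate 5 (median 0.54, against 0.03 over all genes) and 5 of 6 had negative ones with it. WT replicate 1 was the lowest of all libraries for 5 of the 6, which lowers the WT means. Flt4, the receptor of VEGF-C and VEGF-D, averaged 8.60 ± 1.71 CPM in KO tumours and 5.87 ± 1.43 CPM in WT tumours (log2 fold change 0.57, edgeR adjusted p = 0.391). Flt1, the receptor of VEGF-B and PlGF, averaged 60.8 ± 43.7 CPM in KO tumours and 33.6 ± 7.06 CPM in WT tumours. Flt1 was at 38.4, 38.0, 73.4, 132 and 22.5 CPM in KO replicates 1 to 5. WT replicates 1 to 4 were at 23.6 to 40.2 CPM. The log2 fold change of Flt1 was 0.88 without WT replicate 5 (edgeR adjusted p = 0.503). Ptprb, a phosphatase that restrains TEK, averaged 24.2 ± 8.38 CPM in KO tumours and 15.1 ± 8.10 CPM in WT tumours. As with Nrp1, the receptor levels were highest in WT replicate 5, where the 6 summed to 657 CPM, against 91.3 to 215 CPM in KO tumours and 57.7 to 112 CPM in WT replicates 1 to 4. Of the further genes Angpt4 and Svep1 and of the neuropilin partners, 0 of 2 and 0 of 13 were called in either comparison. Angpt4, an angiopoietin, averaged 0.468 ± 0.336 CPM in KO tumours and 0.201 ± 0.228 CPM in WT tumours, and Svep1 41.8 ± 14.9 CPM in KO tumours and 29.5 ± 24.5 CPM in WT tumours.

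Among neuropilin partners, Sema3a, a ligand of NRP1, averaged 3.09 ± 1.54 CPM in KO tumours and 0.968 ± 0.414 CPM in WT tumours (log2 fold change 1.68 ± 0.46, edgeR adjusted p = 0.296). Sema3b averaged 4.48 ± 0.869 CPM in KO tumours and 13.0 ± 10.2 CPM in WT tumours (log2 fold change -1.51 ± 0.47, edgeR adjusted p = 0.317), and Sema3d 2.02 ± 0.594 CPM in KO tumours and 0.906 ± 0.639 CPM in WT tumours. Their KO and WT libraries overlapped. Sema3b was at 14.4, 26.9, 5.17 and 5.35 CPM in WT replicates 1 to 4, against 3.46 to 5.52 CPM in KO tumours. Of 8 genes around the maturation of VEGF-C and VEGF-D 0 were called. Ccbe1, a cofactor of VEGF-C cleavage, averaged 5.37 ± 4.27 CPM in KO tumours and 1.44 ± 0.968 CPM in WT tumours (log2 fold change 1.92 ± 0.62, edgeR adjusted p = 0.320). Ctsd, a lysosomal protease that can cleave these ligands, averaged 567 ± 66.5 CPM in KO tumours and 456 ± 58.3 CPM in WT tumours, and Adamts2 58.9 ± 11.1 CPM in KO tumours and 35.4 ± 24.9 CPM in WT tumours.

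Of 19 hypoxia target genes 0 were called. Without WT replicate 5, 15 had negative log2 fold changes (median -0.26), as Vegfa did, against 46.8% of all genes (median 0.03). The list summed to 4723, 3517, 2268, 2814 and 8095 CPM in WT replicates 1 to 5, against 1613 to 3935 CPM in KO tumours. Among WT replicates 1 to 4, only replicate 1 lay above the KO range. Pdk1, a kinase that holds back pyruvate oxidation, averaged 46.3 ± 7.95 CPM in KO tumours and 77.0 ± 31.0 CPM in WT tumours, and Ankrd37 3.34 ± 1.07 CPM in KO tumours and 7.93 ± 5.81 CPM in WT tumours. For Ankrd37, WT replicates 1 to 4 held 10.6, 14.7, 1.78 and 4.63 CPM, against 2.08 to 4.72 CPM in KO tumours. Ldha, lactate dehydrogenase A, averaged 1106 ± 208 CPM in KO tumours and 1512 ± 274 CPM in WT tumours. The 3 had edgeR adjusted p of 0.352, 0.420 and 0.380. Within a library, Vegfa stood above the mean log2 level of these targets by 1.20 ± 0.50 in KO tumours and by 1.40 ± 0.59 in WT replicates 1 to 4, with overlap. Of the 9 hypoxia regulators 8 passed the filter and 0 were called. Hif1a, the oxygen-regulated subunit, averaged 94.3 ± 18.5 CPM in KO tumours and 121 ± 25.9 CPM in WT tumours. Arnt, its partner, averaged 84.0 ± 8.25 CPM in KO tumours and 76.1 ± 4.07 CPM in WT tumours, and Egln3, a prolyl hydroxylase, 225 ± 141 CPM in KO tumours and 353 ± 238 CPM in WT tumours.

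Of 10 inhibitors of vessel growth 0 were called. Timp3, a matrix protein that blocks binding of VEGF-A to KDR, averaged 37.8 ± 19.4 CPM in KO tumours and 21.8 ± 2.38 CPM in WT tumours (log2 fold change 0.81 ± 0.30, edgeR adjusted p = 0.367). Every KO library lay above WT replicates 1 to 4 for Timp3, as for 1.76% of all genes, and WT replicate 5 was at 52.0 CPM. Col4a3 averaged 0.813 ± 0.242 CPM in KO tumours and 0.200 ± 0.167 CPM in WT tumours, and Thbs1, thrombospondin 1, 342 ± 126 CPM in KO tumours and 545 ± 218 CPM in WT tumours.

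Of 5 genes of endothelial tip cells, which lead a sprout, 0 were called. Their sum was 36.1 to 71.1 CPM in KO tumours, 74.4 to 123 CPM in WT replicates 1 to 4 and 41.6 CPM in WT replicate 5, so the summed levels did not overlap without that library. Apln was the only 1 of the 5 genes whose groups did not overlap, and without it the sums were 25.5 to 48.2 CPM in KO tumours and 32.7 to 64.2 CPM in WT replicates 1 to 4, which overlap. Dll4, a Notch ligand, had a log2 fold change of 0.05 without WT replicate 5 and -0.13 with it. Apln, the ligand of the apelin receptor, was at 17.6, 35.0, 11.5, 10.6 and 11.8 CPM in KO replicates 1 to 5, against 48.8, 52.8, 41.7, 59.1 and 11.2 CPM in WT replicates 1 to 5. Every KO library lay below WT replicates 1 to 4 for Apln, as for 3.87% of all genes, and WT replicate 5 lay among the KO libraries. Its log2 fold change was -1.53 ± 0.35 without WT replicate 5 and -1.30 with it (edgeR adjusted p = 0.279 and 0.669). Esm1, a secreted proteoglycan of tip cells that is induced by VEGF-A, averaged 2.19 ± 1.72 CPM in KO tumours and 9.69 ± 5.27 CPM in WT tumours, and Kcne3 8.22 ± 3.17 CPM in KO tumours and 10.6 ± 3.96 CPM in WT tumours. As with Angpt2, another gene of sprouting endothelium, the log2 fold changes of Apln and Esm1 were negative in both comparisons.

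Of 6 lymphatic endothelial markers 0 were called, with a smallest edgeR adjusted p of 0.0775 without WT replicate 5. Their sum was 35.0 to 48.6 CPM in KO tumours and 5.40 to 34.7 CPM in WT replicates 1 to 4. WT replicate 5 was at 213 CPM, and without it the sums narrowly did not overlap. For 2 of the 6, every KO library lay above WT replicates 1 to 4, as for 1.76% of all genes. In edgeR without WT replicate 5, 4 of the 6 had an unadjusted p under 0.05, against 11.6% of all genes. All 6 had positive log2 fold changes without that library (median 1.12) and 4 of 6 had negative ones with it, while Prox1 and Pdpn were positive in both comparisons. All 14 blood endothelial markers were likewise positive without WT replicate 5 and negative with it, and all 11 skeletal muscle markers tested and 9 of 10 adipocyte markers turned in the same way. The 14 blood endothelial markers summed to 198 to 389 CPM in KO tumours and 94.8 to 300 CPM in WT replicates 1 to 4, with 0 calls. Pericyte markers, a source of Angpt1, summed to 203 to 275 CPM in KO tumours and 144 to 290 CPM in those WT tumours, also with 0 calls. The fibroblast list summed to 3304 to 6956 CPM in KO tumours and 158 to 5614 CPM in those WT tumours. WT replicate 1 was the lowest library for this list, as for Angpt1, Nrp1, Vegfc and Vegfd. It was also the lowest for the blood endothelial, lymphatic endothelial and pericyte sums.

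**Figure D4:**
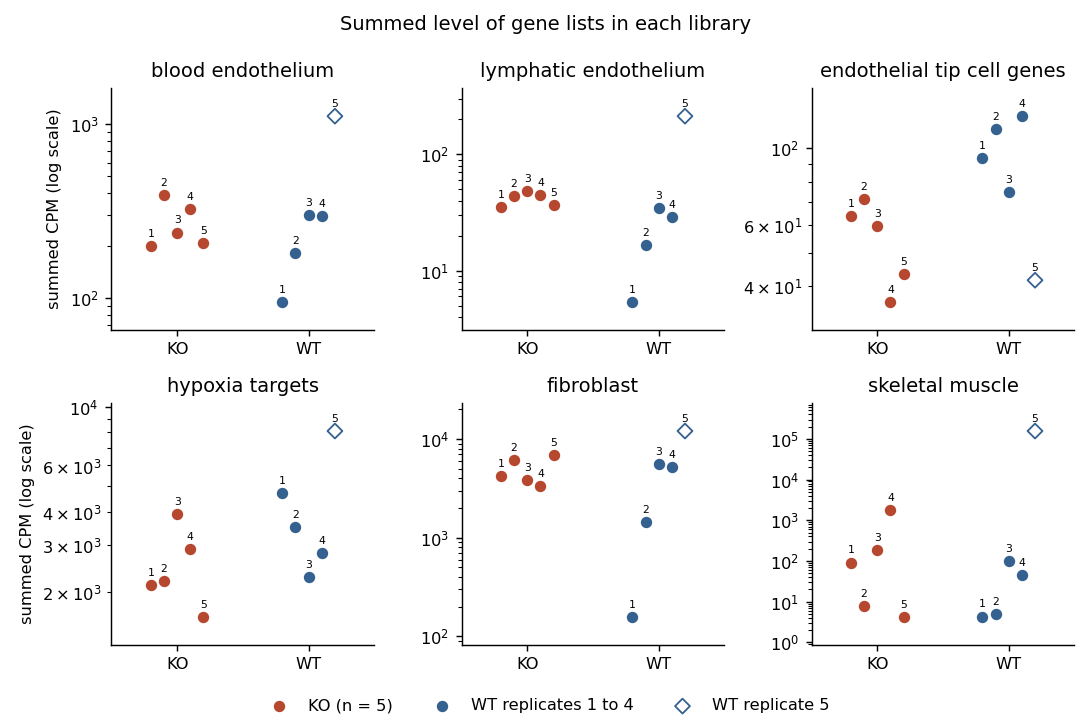
Summed CPM of 6 gene lists (log axes that differ between panels) in 5 KO libraries and, to their right, WT replicates 1 to 4, with WT replicate 5 as an open diamond and replicate numbers as small digits. The tip cell sums of KO libraries (36.1 to 71.1 CPM) lie below those of WT replicates 1 to 4, which holds for Apln but for none of the other 4 genes of that list, and WT replicate 1 is lowest for fibroblast markers (158 CPM).

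The genes with the pattern most like each member were sought over the 9 libraries without WT replicate 5 by Pearson's r of log2 CPM among 13097 genes. The r values below are the highest of many, describe 9 libraries of which 6 share a leading number in pairs, and carry no test. Vegfa was most like Zfp654 (r = 0.970), Ak4, a mitochondrial adenylate kinase on the hypoxia target list (r = 0.969), and Pgam1, a glycolytic mutase (r = 0.962). The libraries stood in the same order for Vegfa and Ak4 (Spearman's rho = 1). Pgf was most like Apol9a, Irf9 and Rtp4 (r = 0.952, 0.951 and 0.950), of which Irf9 is the DNA-binding part of the interferon-induced factor ISGF3. Angpt2 was most like Cttnbp2nl, Lysmd3 and Paip1 (r = 0.929, 0.922 and 0.918).

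Angpt1 was most like AC126937.2, Rnf150 and Zfp462 (r = 0.987, 0.979 and 0.972). Nrp1 was most like Abca9, Prex2 and Thbd (r = 0.994, 0.988 and 0.985), of which Thbd encodes thrombomodulin of the endothelial surface. Nrp2 was most like Dynlt3, Sdha and Xiap (r = 0.945, 0.930 and 0.911). Among the lymphatic growth factors, Vegfd was most like Pla1a, Iffo1 and Ctsk (r = 0.979, 0.978 and 0.978), and Vegfc was most like Lrrk2, Dio3 and Ccdc8 (r = 0.974, 0.970 and 0.960). Vegfb was most like Serpinb8, R3hcc1l and Apba3 (r = 0.973, 0.956 and 0.946), although its range over these libraries was narrow. With WT replicate 5 included, r was 0.06 for Angpt2 and Cttnbp2nl and -0.37 for Vegfb and R3hcc1l.

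**Figure D5:**
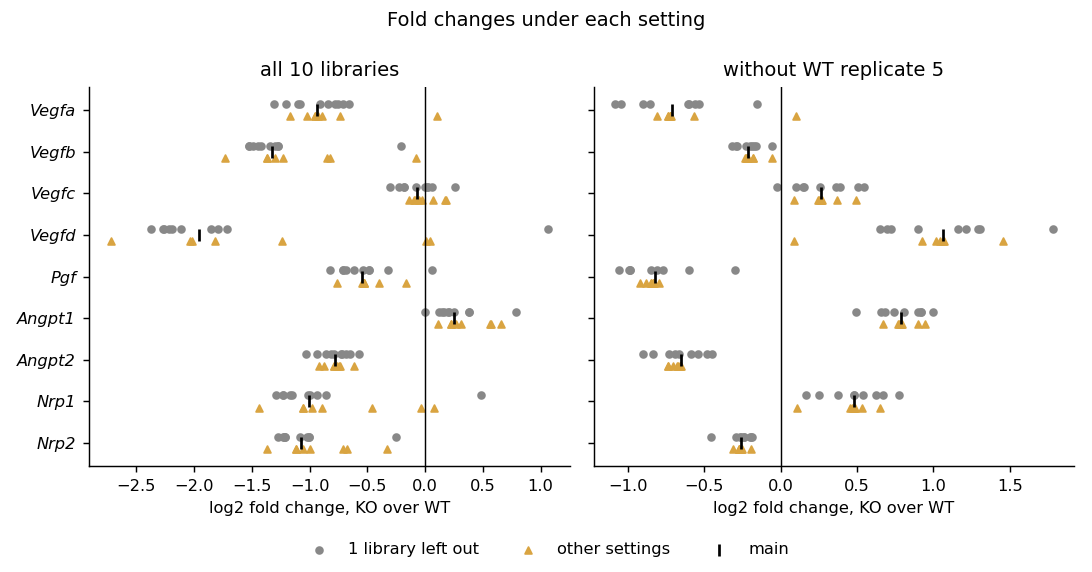
log2 fold changes of KO over WT for each gene under every setting tried, with all 10 libraries (left) and without WT replicate 5 (right). Circles leave out 1 library each, triangles change the scaling, filter, tool or unit, and the black bar is the value reported. Angpt2 stays negative throughout, between -1.03 and -0.45, while Vegfd moves to 1.06 when WT replicate 5 is left out of the 10 libraries.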

How the data were processed

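Poly(A) RNA from whole mammary tumours was sequenced in 10 libraries, 5 KO and 5 WT, as stranded libraries per the labels' protocols. The values are the read counts per Ensembl gene that the authors deposited, not normalized. FastQC, STAR, featureCounts, DESeq2 and the GRCm39 build are listed in the submitters' processing notes. No version, strand setting or annotation release is known from the sources used here, so reads of overlapping genes may have been split or dropped. There were 0 count columns without a sample.

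Symbols came from a table of gene names (52029 of 57010 genes). KO was compared with WT in edgeR 4.0.16 (R 4.3.3) by the quasi-likelihood F-test with robust dispersions, TMM scaling and filterByExpr, with Benjamini-Hochberg adjustment over all genes tested. The standard error is the fold change divided by the square root of F. CPM values use 1 TMM scaling over all 10 libraries, while each fold change comes from its own fit. log2 CPM used a prior count of 2. Tested on simulated data with 100 genes changed 2-fold and 100 changed 4-fold, the fit recovered 4% and 41% with all 10 libraries (18577 genes) and 24% and 62% without WT replicate 5 (19016 genes), with 0% and 1.15% of calls false. The simulated counts were drawn independently around 1 mean per gene. They held no library set apart like WT replicate 5 and no pairs of like libraries, so these rates may not hold for the real libraries.

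Alternatives were RLE scaling, no scaling, DESeq2 1.42.0, limma-voom with quality weights (limma 3.58.1), no filter on low counts, at least 10 counts in every library, libraries summed by leading number, a random block by that number, and leaving out each library. The genes named are the 9 members, Rhbdd1 and the 3 genes with the smallest p of each pathway list. The 3 most similar genes per member, with a mean of at least 1 CPM, are also named. Outside this rule, fold changes or their signs are given for Dll4, Prox1 and Pdpn, and Gm17473 and Mcph1 are named for their position. The members and the 18 lists (166 entries, 165 matched by symbol and 1 by a synonym) were chosen with earlier results of these data known. Each library carries a batch label of its own among the labels' characteristics, so batch and group cannot be told apart. Nothing says that libraries came from separate animals, and p-values then reflect only how these libraries vary, in part perhaps technically.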

Additional observations from a re-analysis of the deposited data

Results flagged for a closer look

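4 of the 9 genes had a WT library far from the rest of its group, each time WT replicate 5, by the gap to the nearest library relative to the range of the 5 (Dixon's criterion). These were Vegfb at 192 CPM, Vegfd at 41.8 CPM, Nrp1 at 118 CPM and Nrp2 at 87.9 CPM. The highest of the other 9 libraries held 37.6, 4.70, 26.0 and 23.1 CPM of the same genes. No KO library was set apart in this way for any of the 9 genes, nor any WT library once WT replicate 5 was left out. Chance sets apart about 1 in 20 such groups if values are normally distributed, which was not tested for these CPM. The 4 genes were read from the same library. WT replicate 5 was already known to stand apart, so these flags are not a separate result. Skeletal muscle, adipocyte and blood endothelial markers were also highest there, and their part in these levels was not tested.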

How the results depend on the processing

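None of the 9 members was called under any of the 8 changes of scaling, filter, tool or unit or with 1 library left out, with all 10 libraries or without WT replicate 5. Their adjusted p-values were at least 0.229 where one was given, since DESeq2 gave none for Vegfb, Vegfd and Nrp2 with all 10 libraries. With all 10 libraries, genes called over the whole table numbered 54 with DESeq2, 17 with limma-voom with quality weights and 0 in the other settings, and 0 to 2 with 1 library left out. Without WT replicate 5 (2 calls) they numbered 463 with DESeq2, 142 with limma-voom with quality weights, 1 without scaling and 0 with sums or a block by leading number, and 0 to 1 with a further library left out.

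With all 10 libraries, 8 of 90 member values changed sign when a library was left out and 7 of 71 under other settings. Vegfc moved between -0.31 and 0.26 with 1 library left out, Vegfd between -2.37 and 1.06, Nrp1 between -1.29 and 0.48, Pgf between -0.82 and 0.061 and Angpt1 between -0.0027 and 0.79. Limma-voom with quality weights gave Vegfa 0.10, Vegfc 0.067, Vegfd 0.041 and Nrp1 0.077. Vegfc was 0.18 without scaling and, with the leading number as a block, 0.18, where Vegfd was 0.0066. Without WT replicate 5, Vegfa changed sign with quality weights (0.10), and Vegfc ranged from -0.023 to 0.54 with a further library left out. The cause of these changes was not tested. Vegfd could not be fitted with at least 10 counts in every library. No paired analysis was possible because the labels give no replicate numbers shared between the groups. Vegfd, with 5 counts in WT replicate 1, was limited most by depth.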
